A study of Mus musculus with 2 samples.

Results

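Lipid handling was described through 9 genes, chosen by name from the 27032 genes of the count tables with earlier results of these data known. They were Nr1h3, Apoe, Abca1, Abcg1, Lpl, Lipa, Npc2, Gm2a and Pla2g2d. Their levels were read in splenic cells of wild-type mice that had been enriched for CD11c with magnetic beads and captured on the BD Rhapsody system, a microwell platform that counts single mRNA molecules per cell by unique molecular identifiers (UMIs). There were 2 samples of 1 group, replicate 1 and replicate 2, and no treatment. By the study's methods the mice were adults of either sex with a C57BL/6J background. The number of mice behind each sample, and their sex, are not given in the sources used here, and sample tags of other mice in the same run were not analysed here. All p-values below therefore measure the spread between these 2 samples of 1 run, which may be technical.

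The liver X receptors are nuclear receptors that sense oxysterols, and Nr1h3 encodes LXRα, the form found in many macrophages. Among their best known target genes are Abca1 and Abcg1, pumps that pass cholesterol to lipoprotein particles, and Apoe, the protein of such particles. Lpl cuts triglycerides of lipoproteins outside the cell. Inside the lysosome, Lipa frees cholesterol from its esters, Npc2 passes it on towards the membrane, and Gm2a lifts glycolipids out of membranes for their breakdown. Pla2g2d is a secreted phospholipase that frees fatty acids from phospholipids. Macrophages of the spleen take up aged red blood cells with their lipids, while dendritic cells (DCs) take up antigen and present it to T cells.

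Cells were assigned to 9 classes by UMI minimums of 1 or 2 genes, and each cell took the first class that it matched. The classes were macrophages (Vcam1 and C1qb), mature DCs (Ccr7 and Fscn1), cDC1s (Clec9a and Xcr1), plasmacytoid DCs or pDCs (Siglech and Ccr9), B cells (Cd79a), T cells (Cd3e), NK cells (Ncr1), DCIR2 cDC2s (Clec4a4) and CLEC10A cDC2s (Clec10a and Cd209a together). Of 3308 cells in replicate 1 and 3085 in replicate 2, macrophages were 358 and 161, cDC1s 797 and 710, DCIR2 cDC2s 565 and 466, CLEC10A cDC2s 494 and 416, mature DCs 147 and 187, and pDCs 14 and 20. There were 74 and 201 B cells, 50 and 187 T cells, and 39 and 36 NK cells, and 770 and 701 cells met no gate. The enrichment sets these numbers, and the minimums favour cells with many UMIs. Median UMIs per cell were 19570.5 and 19416 in macrophages and 20185 and 21782.5 in cDC1s, against 5922.5 and 6382 in T cells.

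Of marker genes not used in the gates, all 10 for macrophages, all 8 for mature DCs and all 6 each for B, T and NK cells were highest in the class of that name. For cDC1s this held for 6 of 8 and for pDCs for 5 of 8. It held for only 2 of 6 markers of DCIR2 cDC2s and 1 of 6 of CLEC10A cDC2s. Compared with each other alone, the DCIR2 class was higher in 5 of its 6 markers in both samples and the CLEC10A class in 4 of its 6. These 2 names therefore stand for the gates. Macrophages also held transcripts of erythroid genes, at a summed 3641 and 2853 CPM (UMIs per 1000000 UMIs of the class), against 504 and 496 CPM in NK cells and at most 121 CPM in any other class. The part of these transcripts in the values below was not tested.

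Promoters of 7 of the 9 genes were found in the RefSeq table for GRCm38.p6, which gives 250 bases before and 50 after each start, and Abcg1 and Lpl were not matched. The 4 sequences printed here stand for the patterns that follow. Abca1 and Apoe are target genes that were highest in macrophages, Gm2a is the gene that was lower there than in DCs, and Pla2g2d is the gene that was least evenly spread over macrophages. Each is given for the 250 bases before the start, at chr4:53159896-53160145 (minus strand), chr7:19699189-19699438 (minus), chr11:55097735-55097984 (plus) and chr4:138775485-138775734 (plus), written 5′ to 3′ on the strand of the gene. Capitals mark motif matches.
Abca1: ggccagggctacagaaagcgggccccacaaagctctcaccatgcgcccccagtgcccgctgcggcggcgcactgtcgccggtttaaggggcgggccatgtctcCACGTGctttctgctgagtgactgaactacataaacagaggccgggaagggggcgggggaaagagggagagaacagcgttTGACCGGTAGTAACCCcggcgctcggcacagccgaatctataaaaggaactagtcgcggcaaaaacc
Apoe: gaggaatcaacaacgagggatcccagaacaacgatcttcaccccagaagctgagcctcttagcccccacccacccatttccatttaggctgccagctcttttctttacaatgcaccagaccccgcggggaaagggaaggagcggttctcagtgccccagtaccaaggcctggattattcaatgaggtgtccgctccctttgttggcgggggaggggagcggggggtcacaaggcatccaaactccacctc
Gm2a: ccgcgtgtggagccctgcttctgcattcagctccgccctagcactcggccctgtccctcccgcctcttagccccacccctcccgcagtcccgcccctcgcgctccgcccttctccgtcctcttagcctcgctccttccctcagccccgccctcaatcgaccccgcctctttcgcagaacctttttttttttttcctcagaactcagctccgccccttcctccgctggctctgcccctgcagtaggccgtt
Pla2g2d: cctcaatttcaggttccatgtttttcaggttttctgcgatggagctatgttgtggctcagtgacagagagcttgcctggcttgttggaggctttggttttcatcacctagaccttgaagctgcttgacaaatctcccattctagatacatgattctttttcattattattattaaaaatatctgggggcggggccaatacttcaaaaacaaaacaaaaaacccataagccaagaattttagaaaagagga

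Both strands were searched for the DR4 motif, the form of site that LXR and RXR are known to bind together, and for the E-box CACGTG. DR4 was taken as AGGTCA, any 4 bases, and AGGTCA again, with at most 3 mismatches in the 12 set bases, an allowance chosen after the closest matches were seen. In the Abca1 promoter, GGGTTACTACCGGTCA matched with 3 mismatches on the strand opposite to the gene, from base -67 to -52 before the start. An E-box lay at -147 to -142 of the same promoter. Among all 32851 promoters of the table, 21.9% held a DR4 match of this kind and 7.15% held CACGTG. No promoter of the other 6 genes held a match, which says only that these letters are not in these windows. The GC content of the whole window was 62.7% in Abca1 and 65.7% in Gm2a, and it was 43% in Pla2g2d.

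Macrophages differed from DCs in all 9 genes. Sums of UMIs per class and sample were compared with edgeR's quasi-likelihood test, with Benjamini-Hochberg adjustment over all genes tested. In macrophages against the mean of the 5 DC classes, 8 of the 9 genes were higher and 1, Gm2a, was lower, in both samples each. Since the 9 genes were chosen with earlier results of these data known, their count is a description. Of the 12214 genes tested, 29.2% were called higher and 22% lower in this comparison, with a median log2 difference of 0.06 over all genes. Of the called genes 57.1% were higher, and 49.0% when scaled by library size alone. This scaling moved the median by -0.12, which is small beside these differences. All 9 calls and directions held under each of 12 other settings. These included leaving out either sample's sums of the compared classes, where the spread came from the sums of B, T and NK cells.

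In GENCODE M21 on GRCm38, Nr1h3 spans chromosome 2 from 91184061 to 91202834 (minus strand), Apoe chromosome 7 from 19696109 to 19699188 (minus) and Abca1 chromosome 4 from 53030787 to 53159895 (minus). Abcg1 spans chromosome 17 from 31057675 to 31117988 (plus), and Gm25447, an rRNA gene on the same strand, lies within its span. Lpl spans chromosome 8 from 68880491 to 68907448 (plus), Lipa chromosome 19 from 34492318 to 34527474 (minus) and Npc2 chromosome 12 from 84754562 to 84773152 (minus). Gm2a spans chromosome 11 from 55098115 to 55113029 (plus) and Pla2g2d chromosome 4 from 138775735 to 138782046 (plus). All are protein-coding, and UMIs were counted over exons and introns.

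**Figure D1:**
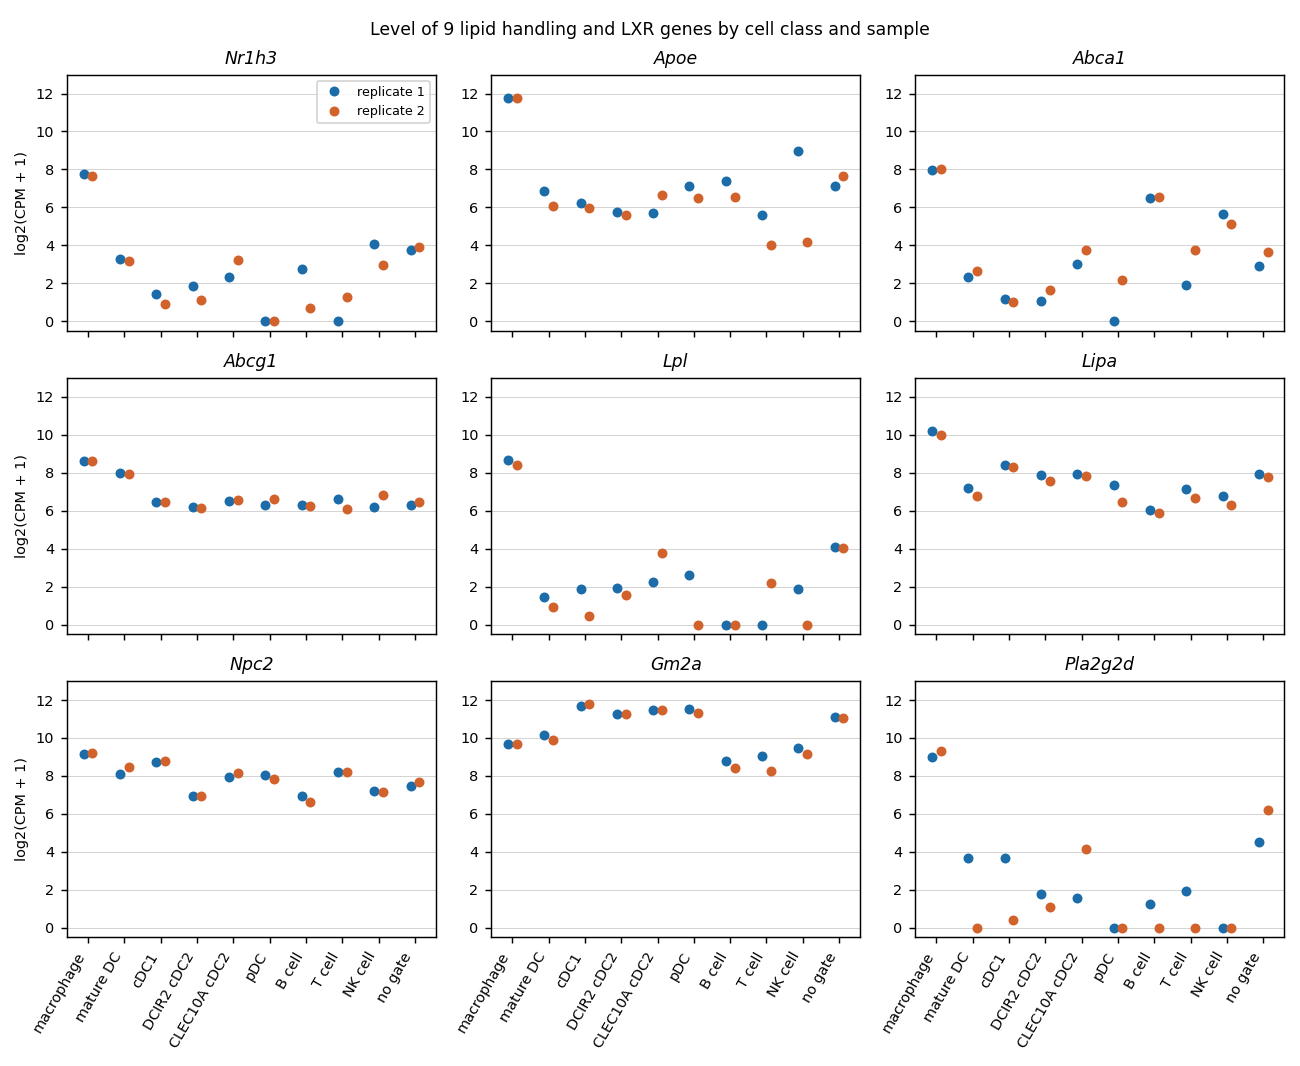
Levels of the 9 genes, in log2(CPM + 1), in the 9 cell classes and in cells that met no gate, with 1 point for each of the 2 samples. Macrophages sit above all other classes for every gene but Gm2a, which is highest in cDC1s, and Pla2g2d and Lpl lie near 0 in most other classes.

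Nr1h3, the receptor itself, was at 216 CPM in macrophages of replicate 1 and at 201 CPM in those of replicate 2. The macrophages were 10.8% and 5.22% of the cells and held 89.7% and 80.3% of all Nr1h3 UMIs. NK cells came next with 15.8 and 6.79 CPM, on 6 and 2 UMIs, and the DC classes lay between 0 and 8.84 CPM. Mature DCs had 8.84 and 7.94 CPM, CLEC10A cDC2s 3.96 and 8.26 CPM, DCIR2 cDC2s 2.58 and 1.13 CPM, and cDC1s 1.74 and 0.865 CPM. The 2 samples of pDCs held 0 UMIs of Nr1h3 in 476280 UMIs, which allows a level of up to 6.30 CPM. With pDCs left out of the mean, an alternative chosen after seeing the data, macrophages exceeded DCs by 6.03 on the log2 scale, and with them by 7.40 (SE 0.24, adjusted p = 4.12e-15 by edgeR). Below macrophages, each class overlapped the next one in its samples' range. Gm13783, on the same strand, and Gm23390, on the other, overlap the gene, and the count is uncertain to that extent.

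Cells with a UMI of Nr1h3 were 85.2% and 85.7% of macrophages (95% Clopper-Pearson intervals 81.1% to 88.7% and 79.3% to 90.7%, which cover counting error only). In cDC1s, which were as deep, they were 1.51% and 1.55%, and in T cells 0% and 0.535%. With each cell thinned to 3000 UMIs, which left out 2 cDC1s and none of the macrophages or T cells, the shares in macrophages were 42.5% and 46.0%, and those in cDC1s 0.377% and 0.423%. Most macrophages thus held the transcript, at a median of 3 and 4 UMIs per cell.

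Apoe was at 3415 and 3456 CPM in macrophages. It was at 165 and 93.0 CPM in B cells, at 140 and 88.0 CPM in pDCs, at 116 and 65.3 CPM in mature DCs and at 73.8 and 62.3 CPM in cDC1s. The cDC2 classes had 53.8 and 47.5 CPM (DCIR2) and 51.0 and 97.8 CPM (CLEC10A). Macrophages lay above every other class in both samples, by 5.63 on the log2 scale over the mean of DCs (SE 0.30, adjusted p = 2.26e-12 by edgeR). Single cells set some of the low levels. In NK cells the 2 samples had 504 and 17.0 CPM, and 183 of the Apoe UMIs in replicate 1 came from 1 cell, without which the level was 25 CPM. In cDC1s of replicate 1, 1 cell gave 244 UMIs, and the level without it was 59.3 CPM. After thinning to 3000 UMIs, 99.2% and 99.4% of macrophages held a UMI of Apoe, against 11.8% and 10% of cDC1s and 8% and 4.28% of T cells.

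Abca1 was at 245 and 264 CPM in macrophages and next in B cells, with 88.1 and 91.1 CPM. NK cells followed with 49.9 and 34.0 CPM. The ranges of these 3 classes did not overlap, and the DC classes all lay far below them. CLEC10A cDC2s had 7.02 and 12.7 CPM, mature DCs 4.12 and 5.29 CPM, DCIR2 cDC2s 1.08 and 2.11 CPM, cDC1s 1.26 and 0.988 CPM, and pDCs 0 and 3.52 CPM. Macrophages exceeded the mean of DCs by 6.61 on the log2 scale (SE 0.17, adjusted p = 4.09e-17 by edgeR). In B cells, 37.8% and 39.3% of cells held a UMI at median depths of 7617 and 6897 UMIs. The 10 macrophage markers stood in B cells at medians of 0.349% and 0.244% of their macrophage level, whereas Abca1 stood there at 35.9% and 34.6%.

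Abcg1 had a flatter profile. It was at 387 and 389 CPM in macrophages, followed by mature DCs with 249 and 240 CPM, and neither range overlapped the next. All other classes lay between 66.8 and 112 CPM. The NK cells, CLEC10A cDC2s, pDCs, cDC1s, T cells and B cells overlapped each with the next in order, and DCIR2 cDC2s had the lowest mean, with 72.4 and 68.5 CPM, although T cells of replicate 2 lay lower at 66.8 CPM. Macrophages exceeded the mean of DCs by 2.03 on the log2 scale (SE 0.09, adjusted p = 2.28e-13 by edgeR).

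Lpl, the lipase, was at 407 and 343 CPM in macrophages. In every other class it was at most 12.7 CPM, and B cells held 0 UMIs of it in either sample. CLEC10A cDC2s had 3.78 and 12.7 CPM, and 26 of their 60 UMIs in replicate 2 came from 1 cell, without which the level was 7.23 CPM. The difference to the mean of DCs was 7.40 on the log2 scale (SE 0.27, adjusted p = 2.74e-14 by edgeR). Macrophages held 93.7% and 86.8% of all Lpl UMIs.

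The lysosomal genes were expressed in all classes and differed less. Lipa was at 1167 and 1013 CPM in macrophages, at 339 and 309 CPM in cDC1s, at 242 and 228 CPM in CLEC10A cDC2s and at 233 and 188 CPM in DCIR2 cDC2s. Mature DCs (147 and 107 CPM), pDCs (161 and 88.0 CPM), T cells (140 and 101 CPM) and NK cells (108 and 78.1 CPM) overlapped, and B cells were lowest with 63.9 and 57.9 CPM. Macrophages exceeded the mean of DCs by 2.65 on the log2 scale (SE 0.11, adjusted p = 5.37e-14 by edgeR).

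Npc2 had the smallest excess in macrophages. Its level was 570 and 596 CPM there, 429 and 441 CPM in cDC1s, 278 and 357 CPM in mature DCs, and 293 and 298 CPM in T cells. It was 242 and 285 CPM in CLEC10A cDC2s and 260 and 225 CPM in pDCs. NK cells (147 and 139 CPM), DCIR2 cDC2s (124 and 122 CPM) and B cells (121 and 98.4 CPM) were lowest and did not overlap each other. The difference between macrophages and the mean of DCs was 1.32 on the log2 scale (SE 0.10, adjusted p = 3.51e-10 by edgeR).

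Gm2a ran the other way. It was highest in cDC1s, with 3257 and 3557 CPM, then in CLEC10A cDC2s with 2860 and 2843 CPM, in pDCs with 2922 and 2532 CPM and in DCIR2 cDC2s with 2464 and 2449 CPM. Mature DCs had 1150 and 963 CPM and macrophages 835 and 819 CPM. Macrophages were lower than the mean of DCs, by -1.37 on the log2 scale (SE 0.14, adjusted p = 4.18e-08 by edgeR), and lower in CPM than each DC class in both samples. Against mature DCs the median cell went the other way, with 7.29 and 7.42 per 10000 UMIs in macrophages and 4.12 and 4.97 in mature DCs. In cDC1s that median was 29.4 and 30.5. Below macrophages in CPM came NK cells with 712 and 567 CPM, and T cells (522 and 308 CPM) and B cells (442 and 344 CPM) overlapped at the bottom. Even so, 99.2% and 98.8% of macrophages held a UMI of Gm2a.

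Pla2g2d was at 504 and 631 CPM in macrophages and at most 16.7 CPM in any other class. The 2 samples of pDCs and of NK cells held 0 UMIs. With pDCs left out of the mean, macrophages exceeded DCs by 6.96 on the log2 scale, and with them by 8.43 (SE 0.57, adjusted p = 6.39e-10 by edgeR). The highest DC levels came mostly from 1 cell each. Of 200 UMIs in cDC1s of replicate 1, 193 lay in 1 cell that also had 34 UMIs of Siglec1, and without it the level fell from 12 to 0.420 CPM. Of 79 UMIs in CLEC10A cDC2s of replicate 2, 73 lay in 1 cell with 61 UMIs of C1qb, and without it the level fell from 16.7 to 1.28 CPM. In replicate 1 of that class, 11 UMIs were spread over 8 cells.

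Among macrophages, Pla2g2d was the least evenly spread of the 9 genes. Only 22.6% and 24.8% of macrophages held a UMI of it (95% intervals 18.4% to 27.3% and 18.4% to 32.3%), and the median was 0, but single cells reached 550 and 315 UMIs. The 5% of macrophages with the most UMIs held 75.5% and 73.3% of all Pla2g2d UMIs of that class. For the other 8 genes this share lay between 13.6% (Npc2) and 26.0% (Lpl).

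**Figure D2:**
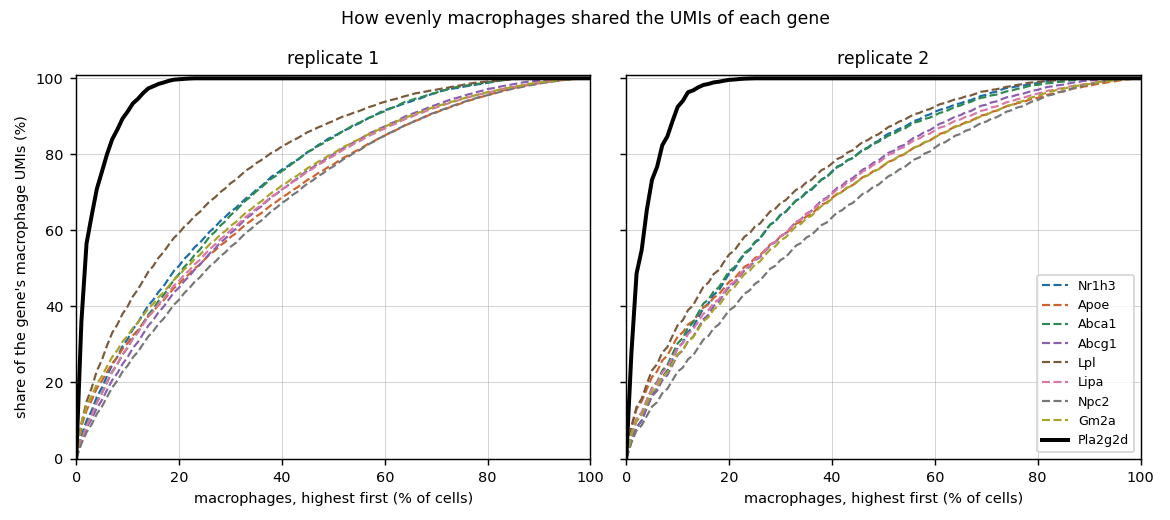
Share of each gene's UMIs in macrophages (vertical axis, %) that was held by the macrophages with the most of them (horizontal axis, % of cells), for replicate 1 with 358 and replicate 2 with 161 macrophages. The curve of Pla2g2d rises at once, with 75.5% and 73.3% of UMIs in the top 5% of cells, while the other 8 genes follow flat curves.

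The macrophages with at least 10 UMIs of Pla2g2d (50 and 21 cells) also held the other macrophage genes. These cells were picked for Pla2g2d, so their values are a description. They were deeper than the 277 and 121 macrophages without a UMI of it, with medians of 27205 and 27475 UMIs against 18019 and 18536. Their Apoe was at 4576 and 5739 CPM, against 3125 and 2987 CPM in those without. Cd163, the haemoglobin scavenger receptor, was at 133 and 85.3 CPM against 388 and 281 CPM, and Adgre1 (F4/80) at 801 and 609 CPM against 992 and 955 CPM. Spic, a transcription factor of red pulp macrophages, was at 1440 and 1527 CPM against 1980 and 1917 CPM. Slc40a1 (6009 and 4122 CPM against 6426 and 5207 CPM), Axl, Csf1r, C1qa and C1qc were lower too in both samples. Of the macrophage markers only Fcna and Hmox1 went the other way. Fcna, a ficolin, was at 3640 and 3064 CPM against 2761 and 2555 CPM. Hmox1, the haem oxygenase, was at 5079 and 5058 CPM against 4858 and 4789 CPM. Siglec1, not among those markers, was at 57.7 and 55.2 CPM against 42.8 and 32.2 CPM. A UMI of Siglec1 was held by 30% and 47.6% of these cells, against 36.8% and 45.5% of those without Pla2g2d. Nr1h3 was at 236 and 211 CPM against 211 and 196 CPM.

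Siglec1 splits the gated macrophages into those with a UMI of it, called MMMs (marginal metallophilic macrophages) here, and the rest. The study's methods set MMMs by a cutoff on Siglec1 expression and name no gate on Vcam1 or C1qb, so its MMMs may be other cells. A UMI of Spic was held by 98.6% and 99.2% of gated macrophages without Pla2g2d and by 100% of the others. The name MMM thus stands for the split by Siglec1 alone. There were 129 and 73 MMMs, of which 64 and 26 held 2 or more UMIs of Siglec1, and 229 and 88 Siglec1-negative macrophages. In this comparison 0 of the 9 genes passed the threshold, while 0.105% of 12357 genes did (13 genes, and 530 had an unadjusted p under 0.05). Among the 9 genes, 0 had an unadjusted p under 0.05, and DESeq2, which called 24 genes, called 0 of the 9 as well. Pla2g2d was at 310 and 407 CPM in MMMs and at 629 and 862 CPM in Siglec1-negative macrophages. The samples did not overlap, and the log2 difference was -1.07 (SE 0.54, adjusted p = 1.00 by edgeR). Without the low-count filter Pla2g2d passed the threshold, as the closing section gives. The other 8 log2 differences lay between -0.26 (Apoe) and 0.23 (Lpl).

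Within DCs, cDC1s and cDC2s differed in 6 of the 9 genes. Against the mean of both cDC2 classes, Npc2, Lipa and Gm2a were higher in cDC1s, and Abca1, Lpl and Nr1h3 were lower. In this comparison 36.9% of the 12214 genes were called. Of all called genes, 50.7% were higher in cDC1s, and 35.9% when scaled by library size alone, and this scaling turned the direction of none of the 9. The lysosomal genes rested on high counts. Npc2 was at 429 and 441 CPM in cDC1s against 183 and 204 CPM in cDC2s, a log2 difference of 1.42 (SE 0.11, adjusted p = 1.90e-09 by edgeR). Lipa was higher by 0.69 (SE 0.13, adjusted p = 3.22e-04), and Gm2a by 0.51 (SE 0.13, adjusted p = 0.00492), both on the log2 scale.

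The 3 genes that were lower in cDC1s were at 2.63 CPM or less there, with 6 to 44 UMIs per sample. Their ranges overlapped with those of DCIR2 cDC2s (Abca1 1.08 and 2.11 CPM, Nr1h3 2.58 and 1.13, Lpl 2.85 and 1.94). They lay below CLEC10A cDC2s in both samples (Abca1 7.02 and 12.7 CPM, Nr1h3 3.96 and 8.26, Lpl 3.78 and 12.7). All 3 were highest in macrophages, and the 10 macrophage markers summed to 161 and 147 CPM in cDC1s, against 304 and 305 CPM in DCIR2 cDC2s and 584 and 696 CPM in CLEC10A cDC2s, with none at 0. Abca1 was at 1.26 and 0.988 CPM against 4.05 and 7.41 CPM in cDC2s (log2 difference -1.63, SE 0.36, adjusted p = 0.00116 by edgeR). Nr1h3 was lower by -1.22 (SE 0.40, adjusted p = 0.0223) and Lpl by -1.38 (SE 0.52, adjusted p = 0.0423), both on the log2 scale. The call of Lpl ended under DESeq2 (-1.45, adjusted p = 0.135), with the classes of the comparison only (-1.41, 0.109), with the deviation filter on cells (-1.22, 0.0762), with doubled gates (0.205) and with C1qb-bearing cells left out (-1.10, 0.0580), where Abca1 and Nr1h3 kept theirs. The call of Abca1 ended with doubled gates (-0.95, adjusted p = 0.146), and that of Nr1h3 with the classes of the comparison only (-1.24, adjusted p = 0.0522 by edgeR). Without replicate 2 the log2 differences were -0.99 for Abca1, -0.73 for Nr1h3, -0.18 for Lpl, 0.65 for Lipa and 0.43 for Gm2a, and none of these 5 passed. Without replicate 1 they were -1.65 for Nr1h3 and 0.57 for Gm2a, and these 2 did not pass. Abcg1 passed with the sample as a block (log2 difference 0.26, adjusted p = 0.0358) and not without it (0.26, adjusted p = 0.0745).

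Mature DCs, the cells with Ccr7, differed from the mean of the other conventional DCs (cDC1s and both cDC2 classes) in 5 genes. Abcg1, Nr1h3 and Npc2 were higher, and Gm2a and Lipa were lower, where 34.0% of all genes were called. With cells of 5 or more C1qb UMIs left out, Apoe passed as well (0.79, adjusted p = 0.00332 by edgeR). Abcg1 was at 249 and 240 CPM against 83.2 and 82.3 CPM, a log2 difference of 1.58 (SE 0.10, adjusted p = 2.60e-10 by edgeR). Gm2a was at 1150 and 963 CPM against 2860 and 2950 CPM (log2 difference -1.44, SE 0.14, adjusted p = 1.20e-07). Neither pair of samples overlapped.

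Lipa was lower by -0.99 on the log2 scale (SE 0.15, adjusted p = 2.87e-05). Nr1h3 was higher by 1.76 (SE 0.45, adjusted p = 0.00502 by edgeR), on 15 and 18 UMIs, of which 1 cell gave 7 of the 18. Npc2 was higher by 0.41 than the mean of these classes (SE 0.11, adjusted p = 0.00639 by edgeR), but not than each of them. At 278 and 357 CPM, its level was below that of cDC1s (429 and 441 CPM) in both samples. It overlapped with CLEC10A cDC2s (242 and 285 CPM) and was above DCIR2 cDC2s (124 and 122 CPM). Leaving out replicate 2 ended the calls of Nr1h3 (1.79), Lipa (-0.82) and Npc2 (0.29), and leaving out replicate 1 ended that of Npc2 (0.59), as did fitting without the low-count filter (0.28, adjusted p = 0.0808 by edgeR). Single mature DCs, at median depths of 10059 and 10682 UMIs, ranged in Gm2a from 0.914 and 1.15 per 10000 UMIs at the lower quartile to 15.3 and 13.8 at the upper one, whereas cDC1s ranged from 20 and 21.2 to 41.0 and 44.8.

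**Figure D3:**
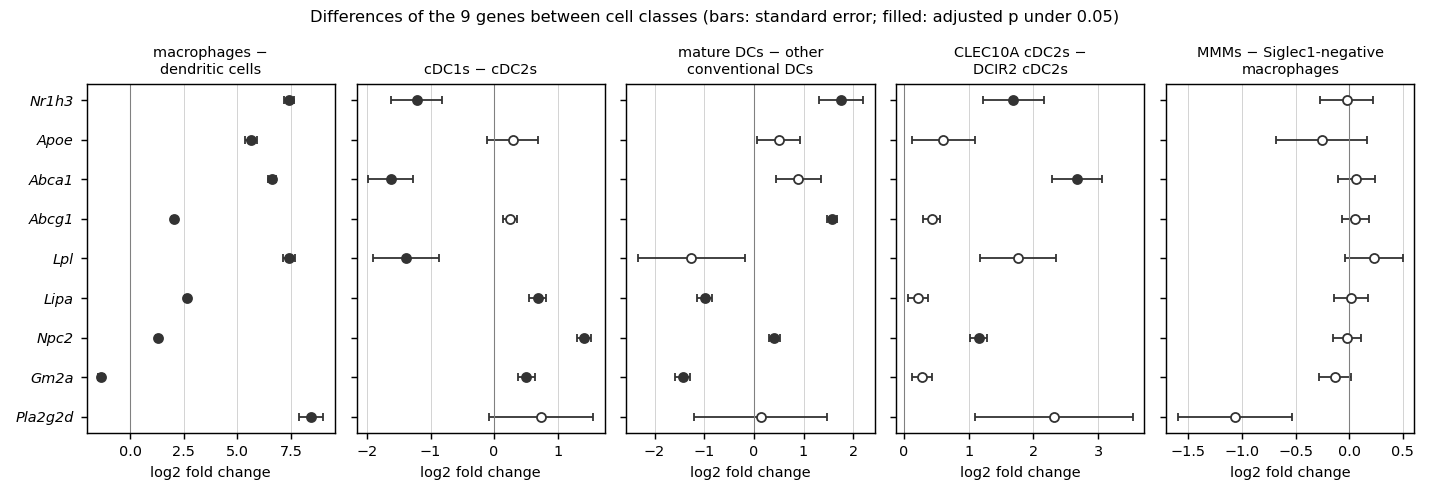
Log2 fold changes of the 9 genes (points) with their standard errors (bars) in 5 comparisons of cell classes over 2 samples, each panel with its own horizontal axis. Filled points passed an adjusted p of 0.05. All 9 are filled for macrophages against DCs, with Gm2a at -1.37 on the lower side, and none is filled for MMMs.

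CLEC10A cDC2s had more Abca1, Npc2 and Nr1h3 than DCIR2 cDC2s, with 5.58% of all genes called, and 0 of the 9 genes were lower. Of the 565 and 466 DCIR2 cDC2s, 210 and 159 also met the CLEC10A gate and no other, and counted as DCIR2 by the first match. Of the called genes, 67.7% were higher in CLEC10A cDC2s, and 56.1% when scaled by library size alone. A block for the sample gave 1033 called genes in place of 681, and Abcg1 was then called as well (log2 difference 0.43, adjusted p = 0.0277, against 0.0665 without the block). Npc2 was at 242 and 285 CPM against 124 and 122 CPM (log2 difference 1.16, SE 0.13, adjusted p = 1.82e-05 by edgeR). Abca1 was at 7.02 and 12.7 CPM against 1.08 and 2.11 CPM (log2 difference 2.68, SE 0.38, adjusted p = 1.79e-04 by edgeR), and its samples did not overlap either.

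Nr1h3 was at 3.96 and 8.26 CPM against 2.58 and 1.13 CPM (log2 difference 1.69, SE 0.47, adjusted p = 0.0404 by edgeR). Macrophage transcripts moved with these values, as the marker sums above show, and 4 and 10 CLEC10A cells against 1 and 1 DCIR2 cells had 5 or more UMIs of C1qb. With such cells left out of all classes but macrophages, an alternative chosen after seeing the data, the log2 difference of Nr1h3 was 0.83 (adjusted p = 0.398). Abca1 (2.47, adjusted p = 1.98e-04) and Npc2 (1.13, adjusted p = 8.44e-06) kept their calls. The call of Nr1h3 also ended under DESeq2 (log2 difference 1.76, adjusted p = 0.0518), in cells of 1 gate only (1.44, 0.0800), with doubled gates (1.33, 0.233) and without replicate 2 (0.67).

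In pDCs against conventional DCs, Lipa was the one gene called, and it was lower, where 11.1% of all genes were called. Of the 14 and 20 pDCs, only 4 and 7 met no other gate. In those the mean level was 77.4 CPM for Lipa and 2100 CPM for Gm2a, against 125 and 2727 CPM in all pDCs. Lipa was at 161 and 88.0 CPM against 271 and 242 CPM (log2 difference -1.32, SE 0.23, adjusted p = 6.22e-04 by edgeR), and the call ended without replicate 2 (-0.92). The log2 difference of Gm2a was -0.32 (SE 0.14, adjusted p = 0.156) and that of Abcg1 -0.11 (SE 0.21, adjusted p = 0.818). For Nr1h3, Pla2g2d, Lpl and Abca1 the SE was 1.56 or more, and differences of these 4 were not detectable in 14 and 20 cells. Of all called genes 43.5% were higher in pDCs, and 70.0% when scaled by library size alone, which moved the median of all genes by 0.23 and turned the log2 difference of Abcg1 from -0.11 to 0.13.

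Langerin+ cDC1s, those with a UMI of Cd207, were 137 and 154 cells against 660 and 556 Langerin- cDC1s. Again 0 of the 9 genes passed in edgeR and in DESeq2, with 0.291% of 12357 genes called by edgeR, and 3 of the 9 had an unadjusted p under 0.05. Gm2a was at 4111 and 4345 CPM in Langerin+ cells and at 3038 and 3279 CPM in Langerin- cells. The samples did not overlap, and the log2 difference was 0.48 (SE 0.15, unadjusted p = 3.79e-03, adjusted p = 0.366 by edgeR). Lipa was at 423 and 358 CPM against 318 and 292 CPM (log2 difference 0.41, SE 0.16, adjusted p = 0.705). The third, Pla2g2d, turned its direction without replicate 1. In replicate 1 it was at 0 CPM in Langerin+ and 15.0 CPM in Langerin- cells, where 193 of 200 UMIs came from the 1 cell with 34 Siglec1 UMIs. Under other settings 3 calls were gained, Gm2a without the low-count filter (0.40, adjusted p = 0.0188 by edgeR) and with the compared classes only (0.50, adjusted p = 0.00424), and Pla2g2d without the filter (-4.75, adjusted p = 7.81e-14).

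Further genes of lipid metabolism were read in 6 lists, also chosen with earlier results of these data known, so their counts are a description. In macrophages against DCs, 15 of 21 tested genes of the LXR list were higher and 4 lower, with a median log2 difference of 1.39 against 0.06 over all genes tested. The counts of the lists stand beside 29.2% called higher and 22% called lower over all genes. Cd5l, a secreted macrophage protein, was at 800 and 707 CPM against 1.95 and 1.74 CPM (log2 difference 9.70, SE 0.17, adjusted p = 5.88e-19 by edgeR). Apoc1, an apolipoprotein that neighbours Apoe, had 442 UMIs in macrophages and 6 in DCs. The floppase gene Abca7 was lower, at 16.4 and 12.7 CPM against 75 and 58.4 CPM (log2 difference -1.83, SE 0.19, adjusted p = 8.18e-08), and so was Fasn, the fatty acid synthase (-0.81, SE 0.31, adjusted p = 0.0354).

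Of lysosomal lipid genes, 18 of 21 were higher in macrophages and 1 was lower. Pla2g15, the lysosomal phospholipase, was at 312 and 324 CPM against 2.59 and 4.28 CPM (log2 difference 7.11, SE 0.17, adjusted p = 9.20e-18 by edgeR). In the list of fatty acid storage and use 16 of 22 were higher and 2 lower. Pparg, a nuclear receptor of fatty acids, was at 407 and 384 CPM against 6.04 and 5.65 CPM (log2 difference 6.63, SE 0.19, adjusted p = 1.57e-16). Lipid uptake and scavenging genes were higher in 9 of 12 and lower in 1. Fabp4, a fatty acid carrier, had 152 UMIs in macrophages and 2 in DCs, a ratio of 430 per UMI sequenced, with a counting interval of 117 to 3583.

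Phospholipases and lipid mediators were higher in 8 of 15 and lower in 4. Ptgs1, the constitutive cyclooxygenase, was at 527 and 490 CPM in macrophages against 1.13 and 0.866 CPM (log2 difference 9.80, SE 0.18, adjusted p = 1.14e-18 by edgeR). Its inducible partner Ptgs2 was lower, at 23.8 and 39.9 CPM against 243 and 316 CPM (log2 difference -2.51, SE 0.35, adjusted p = 4.19e-06). Genes of cholesterol synthesis and uptake were split, with 7 of 23 higher, 5 lower and a median of 0.20, which is near the shares over all genes. Insig1, which holds back the synthesis pathway, was higher by 1.68 on the log2 scale (SE 0.15, adjusted p = 1.35e-08 by edgeR).

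**Figure D4:**
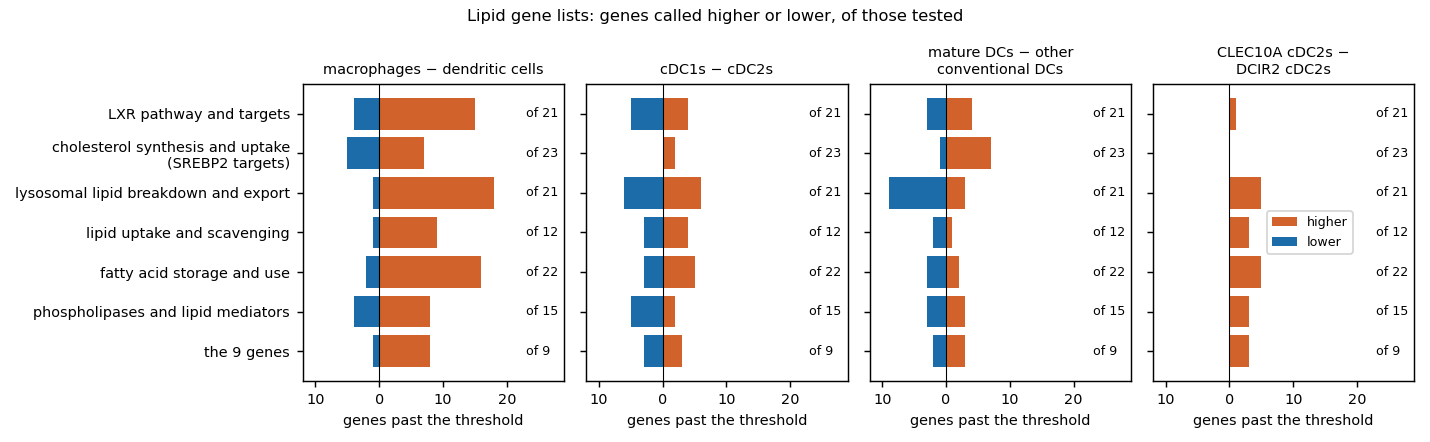
Number of genes called higher (right of 0) or lower (left of 0) in 4 comparisons, for the 6 lists and the 9 genes, with the number tested beside each bar. In macrophages against DCs 18 of 21 lysosomal lipid genes lie on the higher side, and in CLEC10A against DCIR2 cDC2s no list has a gene on the lower side.

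In cDC1s against cDC2s, where 36.9% of all genes were called, 4 of 12 uptake genes were higher and 3 lower. Cd36, a receptor for fatty acids and oxidised lipoproteins, was at 453 and 429 CPM in cDC1s against 5.79 and 11.9 CPM (log2 difference 5.97, SE 0.26, adjusted p = 9.87e-13 by edgeR). Of lysosomal genes 6 were higher and 6 lower, led by Ppt1, a thioesterase that removes palmitate from proteins, at 2568 and 2532 CPM against 151 and 126 CPM (log2 difference 4.35, SE 0.14, adjusted p = 8.22e-15). In the LXR list 4 were higher and 5 lower. Tgm2, a transglutaminase, was at 9.45 and 11.2 CPM against 268 and 251 CPM (log2 difference -4.46, SE 0.23, adjusted p = 1.50e-11). For fatty acid storage 5 of 22 were higher and 3 lower, for mediators 2 of 15 and 5, and for cholesterol synthesis 2 of 23 and 0. The LXR and fatty acid lists were thus near the share over all genes, and the cholesterol list was below it.

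In mature DCs against other conventional DCs, 7 of 23 cholesterol synthesis and uptake genes were higher and 1 lower. Only both directions together were close to the 34.0% called over all genes. Of all 12214 genes, 2052 were higher and 2097 lower. The median log2 difference of this list was 0.34, against -0.08 over all genes. Among the higher ones was Idi1, an enzyme of isoprenoid synthesis (log2 difference 1.09, SE 0.23, adjusted p = 9.87e-04 by edgeR). Lysosomal genes were lower in 9 of 21 and higher in 3. Fabp5, a fatty acid carrier, was at 346 and 378 CPM against 23.5 and 22.2 CPM (log2 difference 4.67, SE 0.18, adjusted p = 7.37e-14). It was the 1 uptake gene that was higher, and 2 of 12 were lower. The LXR list had 4 higher and 3 lower, fatty acid storage 2 and 3, and mediators 3 and 3.

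In CLEC10A against DCIR2 cDC2s, with 5.58% of all genes called, 5 of 21 lysosomal genes, 5 of 22 of fatty acid storage, 3 of 12 of uptake, 3 of 15 of mediators, 1 of 21 of the LXR list and 0 of 23 of cholesterol synthesis were higher. Macrophage markers were higher in this class too. With cells of 5 or more C1qb UMIs left out, the counts were as before and held the same genes. That took away only 4 of 494 and 10 of 416 CLEC10A cells, and cells with fewer C1qb UMIs stayed in. The part of macrophage transcripts in these counts was not tested. Psap, the precursor of the saposins that help lysosomal enzymes reach glycolipids, was at 2360 and 2666 CPM against 886 and 968 CPM (log2 difference 1.5, SE 0.18, adjusted p = 1.96e-05 by edgeR). In pDCs, with 11.1% of all genes called, 2 of 21 lysosomal genes were higher, among them Npc1, the membrane partner of Npc2 (log2 difference 1.57, SE 0.25, adjusted p = 2.82e-04), and 3 were lower. Tgm2 had 0 UMIs in pDCs. Taking 3 UMIs over both samples (6.30 CPM) as the floor, it was at least 28.0-fold below the mean of conventional DCs, 176 CPM. That mean came from cDC2s, with 320 CPM in the DCIR2 and 199 CPM in the CLEC10A class. In cDC1s Tgm2 was at 10.3 CPM, so the fold does not hold against them. Of the other lists in pDCs, 2 uptake genes were higher, 2 fatty acid genes and 1 mediator gene were lower, and 0 cholesterol genes were called. In the Langerin and the MMM comparison 0 genes of any list were called by edgeR.

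Over the 18 sums of class and sample, the genes whose log2(CPM + 1) followed each of the 9 most closely were found among 8808 genes, given as a description without a p. Those sums share libraries and the gap between macrophages and the rest. Nr1h3 went with Hebp1 (Pearson r = 0.967), Apoe with C1qb (0.916), whose level the gate itself sets, Abca1 with Dok3 (0.905), and Lpl with Axl (0.946). Pla2g2d went with Fpr2 (0.943), Fpr1 (0.939) and Pparg (0.929). Abcg1 went with Lamp1 (0.952) and Lipa with Akr1a1 (0.932). Npc2 had the lowest closest match, Plekhb2 (0.886), and Gm2a went with Alox5ap (0.956), which activates leukotriene synthesis. Among the 9 genes, Lpl and Pla2g2d were the closest pair (r = 0.885), and Abca1 and Gm2a lay farthest apart (r = -0.657).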

How the data were processed

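Splenic CD11c+ cells of 2 wild-type samples of 1 run were measured by single-cell RNA sequencing. The deposited values are raw UMI counts per cell and gene, which the authors obtained from the BD Rhapsody WTA Analysis Pipeline 1.12.1. It used GRCm38 and GENCODE vM19, refined the calling of cells, corrected UMIs and included reads of introns. The submitters' processing notes also name R 4.2.3 and Seurat 4.3.0.1. Replicate 1 held 46953398 UMIs and replicate 2 held 43137746, and 0 cell numbers were shared between the samples.

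Cells were gated by UMI minimums (macrophages Vcam1 20 and C1qb 5, mature DCs Ccr7 2 and Fscn1 1, cDC1s Clec9a 2 and Xcr1 1, pDCs Siglech 3 and Ccr9 1, B cells Cd79a 3, T cells Cd3e 2, NK cells Ncr1 1, DCIR2 cDC2s Clec4a4 2, CLEC10A cDC2s Clec10a plus Cd209a 2). Cells of more than 1 gate (350 and 313) took the first, and no doublet caller was run. CPM are UMIs per 1000000 UMIs of a class. UMIs were summed per class and sample and tested with edgeR 4.0.16 (TMM, filterByExpr, quasi-likelihood test, Benjamini-Hochberg adjustment, threshold 0.05) in R 4.3.3, without the genes of the gates, Cd207 and Siglec1. Standard errors were taken as the size of the log2 fold change over the root of its F statistic. Comparisons share classes. DESeq2 1.42.0 and other alternatives are given in the closing section, and the tests were tested on simulated data. Python 3.11.15, numpy 2.4.6, scipy 1.17.1 and matplotlib 3.10.9 were used.

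Sums with the same number come from the same sample, which pairs them. Over 36 pairs of classes, the correlation of deviations from the class mean lay between -0.045 and 0.281 (median 0.056, 3035 genes). Chi-square over degrees of freedom between the 2 samples of a class lay between 2.47 and 6.10, which takes in the variation between cells.

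The 9 genes, the lists and the markers were chosen with earlier results of these data known. From the 6 lists, at most 2 genes per direction and comparison were eligible to be named, those with the largest fold change among genes past the threshold at 10 CPM or more in the higher class. Genes alike were the 3 with the highest correlation among genes at 20 CPM or more in 1 class in both samples. Some eligible genes of the lists are not reported here.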

Additional observations from a re-analysis of the deposited data

Results flagged for a closer look

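Cells that met no gate, which no comparison used, held 2 of the 9 genes above the level of every gated class but macrophages in both samples. Lpl was at 16.1 CPM in replicate 1 and 15.4 CPM in replicate 2. Pla2g2d was at 21.7 and 73.0 CPM, of which 1 cell each gave 119 of 146 and 423 of 479 UMIs, and without that cell the levels were 4.03 and 8.59 CPM. Of these cells, 23 and 19 held 5 or more UMIs of C1qb, and their 10 macrophage markers stood at medians of 1.86% and 1.94% of the macrophage level. The part of such cells in both levels was not tested.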

How the results depend on the processing

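All 9 calls between macrophages and DCs held under 12 alternatives. Of the other fold changes of the 9 genes, 25 lost and 29 gained a call, and 22 reversed, all of genes that were not called. Without 1 replicate, where each class has 1 sum that is assumed to vary like the others, 2775 to 3042 genes were called for macrophages in place of 6259, 1754 to 1808 for cDC1s in place of 4508, 1359 to 1433 for mature DCs in place of 4149, 278 to 574 for pDCs in place of 1357, 102 to 196 for CLEC10A cDC2s in place of 681, 3 to 9 for Langerin in place of 36 and 7 to 8 for MMMs in place of 13. The replicate block gave 1033 genes for CLEC10A cDC2s and added Abcg1 in the cDC1 and CLEC10A comparisons, and it changed no other call of the 9 genes. CLEC10A counts were 1068 without the low-count filter, 1784 with the compared classes only and 1161 with cells of 1 gate only, which gave 848 for pDCs. Langerin counts were 79 (DESeq2), 156 (no filter), 91 (compared classes only), 9 (1 gate) and 7 (doubled gates), and MMM counts 24 (DESeq2), 136 (no filter), 1 (deviation filter on cells), 6 (1 gate) and 21 (doubled gates). With C1qb-bearing cells left out, list counts moved by over 1.5 times in 4 of 84 cases, from 2 to 1 (cholesterol, higher in cDC1s; uptake, lower in mature DCs), from 1 to 2 (mediators, lower in pDCs) and from 0 to 1 (uptake, lower in MMMs). The cause was not tested.

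Reversed log2 differences of the 9 genes were as follows, with the value without the other replicate beside each. Without replicate 1 and without replicate 2, Pla2g2d was -3.54 (adjusted p = 0.0278 by edgeR) and 2.56 (adjusted p = 0.00349) for cDC1s, -5.60 and 1.64 for mature DCs, 3.92 and -0.24 for CLEC10A cDC2s, and 0.87 and -8.58 for Langerin. In the same order Abcg1 was 0.022 and -0.27 and Lpl -5.86 and 0.58 for pDCs, Apoe was 1.117 and -0.022 for CLEC10A cDC2s, Nr1h3 was 2.30 and -0.60 and Lpl 0.50 and -0.92 for Langerin, and Nr1h3 was 0.16 and -0.15 for MMMs. Pla2g2d was -0.73 for cDC1s with doubled gates. For pDCs, Abcg1 was 0.13 by library size, 0.016 by DESeq2 and 0.40 with 1 gate, where Lpl was 0.65. Apoe was -0.085 for CLEC10A cDC2s with C1qb-bearing cells left out, an alternative chosen after the data were seen. For Langerin, Npc2 was -0.021 by library size and -0.040 without the filter. For MMMs, Lipa was -0.011 without the filter, -0.0096 with the deviation filter, where Abcg1 was -0.043, and -0.0050 with 1 gate. Without the low-count filter, Pla2g2d passed in MMMs (-1.08, adjusted p = 3.03e-08 by edgeR).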
